A study of Mus musculus with 6 samples.

Results

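The genes that carry the Wnt signal into transcription were examined in mouse intestinal tumor organoids of 3 Trp53 genotypes. The 9 members were the 4 TCF/LEF genes Tcf7, Lef1, Tcf7l1 and Tcf7l2, the beta-catenin gene Ctnnb1, the coactivator genes Bcl9, Bcl9l and Pygo2, and Apc, and they were chosen by gene symbol. All 9 members were found among the 36172 genes of the deposited table, and 7 of the 9 reached the 4 rpkm in at least 1 library that was required for testing. Tcf7l1 and Tcf7l2 did not and are described by their values.

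Organoids of this kind grow from the epithelial cells of a tumor, embedded in a gel. The organoids came from C57BL/6 mice of 15 to 20 weeks, with 2 mice per genotype and an independent preparation from each, which gave 6 poly(A) RNA libraries. All 3 groups shared the Apc(D716) allele, a truncation at codon 716, together with loss of the other Apc allele. The groups were Trp53 +/+, Trp53 flox/flox, in which the unrecombined LSL allele is null, and Trp53 R270H/R270H, whose alleles both produce the missense form R270H of p53. The R270H allele was switched on with tamoxifen by villin-CreER, a Cre that is limited to the intestinal epithelium. Tamoxifen is described for the R270H/R270H mice alone, so its part cannot be told apart from that of the mutation. Since each library stands for 1 mouse, p-values measure the spread between 2 preparations per genotype.

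In the canonical Wnt pathway, APC is part of the cytoplasmic destruction complex that marks beta-catenin for degradation. When APC is lost, beta-catenin accumulates, enters the nucleus and binds TCF/LEF proteins, which hold the target genes through an HMG box and are otherwise occupied by Groucho/TLE corepressors. BCL9 or BCL9L then bridges beta-catenin to PYGO2, which reads histone methylation. TCF7L2 (also called TCF4) is known as the main TCF of the intestinal crypt, TCF7 and LEF1 are best known from lymphocytes and are themselves induced by Wnt signaling in colorectal tumors, and TCF7L1 acts mostly as a repressor. Tcf7 and Lef1 also give rise to short forms that lack the beta-catenin binding domain, and values per gene do not separate them from the full forms.

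The 4 TCF/LEF genes share the stretch that encodes the HMG box, and how alike it is bears on whether the reads of 1 paralog could be counted for another. The first 120 bases of this stretch are shown here from GENCODE M21 on GRCm38, on the coding strand, with capitals for the bases that are identical in all 4 genes. For Tcf7l2, whose transcripts hold 2 versions of the stretch, 1 version is shown.
Tcf7: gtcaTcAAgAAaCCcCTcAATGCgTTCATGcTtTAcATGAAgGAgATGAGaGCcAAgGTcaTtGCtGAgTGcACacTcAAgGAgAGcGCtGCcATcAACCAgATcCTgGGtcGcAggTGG
Lef1: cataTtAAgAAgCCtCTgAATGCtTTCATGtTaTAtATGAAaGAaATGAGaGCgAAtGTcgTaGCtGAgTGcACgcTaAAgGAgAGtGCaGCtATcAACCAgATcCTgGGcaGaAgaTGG
Tcf7l1: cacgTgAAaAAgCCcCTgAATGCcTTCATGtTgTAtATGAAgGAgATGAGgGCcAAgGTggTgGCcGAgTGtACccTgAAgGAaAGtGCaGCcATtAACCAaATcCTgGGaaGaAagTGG
Tcf7l2: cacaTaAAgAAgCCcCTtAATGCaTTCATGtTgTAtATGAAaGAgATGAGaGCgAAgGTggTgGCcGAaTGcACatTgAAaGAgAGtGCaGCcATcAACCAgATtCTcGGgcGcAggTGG
Of these 120 bases, 79 were identical in all 4 genes, and any pair of genes shared between 92 and 98. Between 36 and 39 of the 40 codons encoded the same residue in a pair. The differing bases were scattered over the stretch. Across whole transcripts, the longest run of bases that any 2 of the 4 genes had in common was between 14 and 23, and for Bcl9 and Bcl9l it was 20.

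The shown stretch lies in coding exons. In Tcf7, on the minus strand of chr11:52252371-52283014, 117 of its bases are in exon 7. In Lef1, on the plus strand of chr3:131110471-131224356, they are in exon 8. In Tcf7l1, on the minus strand of chr6:72626378-72789254, and in Tcf7l2, on the plus strand of chr19:55741820-55933654, they are in exon 9. The last 3 bases are in the next exon of each gene. Of 19 annotated genes that overlap a member, 7 were matched in the table and each of these was at the lowest value in all 6 libraries.

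Values are given in rpkm, reads per kilobase of transcript per M mapped reads, a scale meant for comparing levels between genes. Such comparisons depend on the length used for each gene, which is not given in the sources used here. No deposited value is below 1 rpkm, and this floor stands for any lower level. The libraries were estimated to hold 44.2 to 48.5 M mapped reads, and the floor corresponds to 44.2 to 48.5 reads per kilobase of transcript. The estimate for flox/flox replicate 1 rested on 7 short genes and is uncertain. Log2 values of the paired libraries correlated across genes with r = 0.996 in +/+, 0.932 in flox/flox and 0.993 in R270H/R270H, so the flox/flox libraries were the least alike. As a check of the labels, Trp53 was 75.9 and 74.3 rpkm in +/+, 1.73 and 2.48 in flox/flox, and 72.8 and 82.7 in R270H/R270H.

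The R270H/R270H organoids had higher levels of Tcf7, Lef1 and Ctnnb1 than the Trp53 +/+ organoids. Lef1 differed most, with a mean of 5.82 ± 0.16 rpkm (SD, n = 2) against 1.41 ± 0.16, which is 4.14-fold. Tcf7 was 1.96-fold and Ctnnb1 1.73-fold higher. These 3 of the 7 members tested passed an adjusted p of 0.05 in limma and none was called lower, against 5.86% of all 10042 genes tested that were called higher and 6.36% that were called lower. Lef1 reached the 4 rpkm filter only through its R270H/R270H libraries and so had to differ to be tested, which leaves 2 of the other 6 tested members called. In bulk RNA, fewer cells of a type and less RNA per cell cannot be told apart.

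Tcf7 was the most abundant TCF/LEF gene in every library. Its level was 20.0 and 20.8 rpkm in +/+, 22 and 21.5 in flox/flox, and 40.9 and 39.0 in R270H/R270H. Both R270H/R270H libraries were far above the other 4, which lay close together. The log2 fold change of rpkm+1 against +/+ was 0.94 (SE 0.092, limma adjusted p = 0.00679).

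Lef1 was 1.52 and 1.30 rpkm in +/+, 1 and 1 in flox/flox, and 5.93 and 5.71 in R270H/R270H. It was therefore at the floor in both flox/flox libraries, just above it in +/+, and clearly detected in R270H/R270H only. The log2 fold change of rpkm+1 against +/+ was 1.50 (SE 0.14, limma adjusted p = 0.00603). The flox/flox pair enters the shared estimate of the spread with no spread of its own, since both values are at the floor. The SE and p of Lef1 may therefore be too small in each comparison. With no pseudocount the same difference was 2.05, because adding 1 to the low +/+ values shrinks the change.

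Tcf7l2 was 2.82 and 2.96 rpkm in +/+, 2.10 and 2.83 in flox/flox, and 3.57 and 3.06 in R270H/R270H. Its R270H/R270H libraries were the highest, but the margin over the nearest +/+ library was smaller than the gap between the R270H/R270H libraries themselves. With the filter lowered to any value above the floor, the log2 fold change against +/+ was 0.15 with a 95% confidence interval from -0.20 to 0.50 (limma adjusted p = 0.516). Tcf7l1 was 1.13 and 1.07 rpkm in +/+, 1 and 1.72 in flox/flox, and 1.60 and 1.66 in R270H/R270H. The range of its flox/flox libraries covered all the others, and the lower filter gave a log2 fold change against +/+ of 0.32 (limma adjusted p = 0.215).

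**Figure D1:**
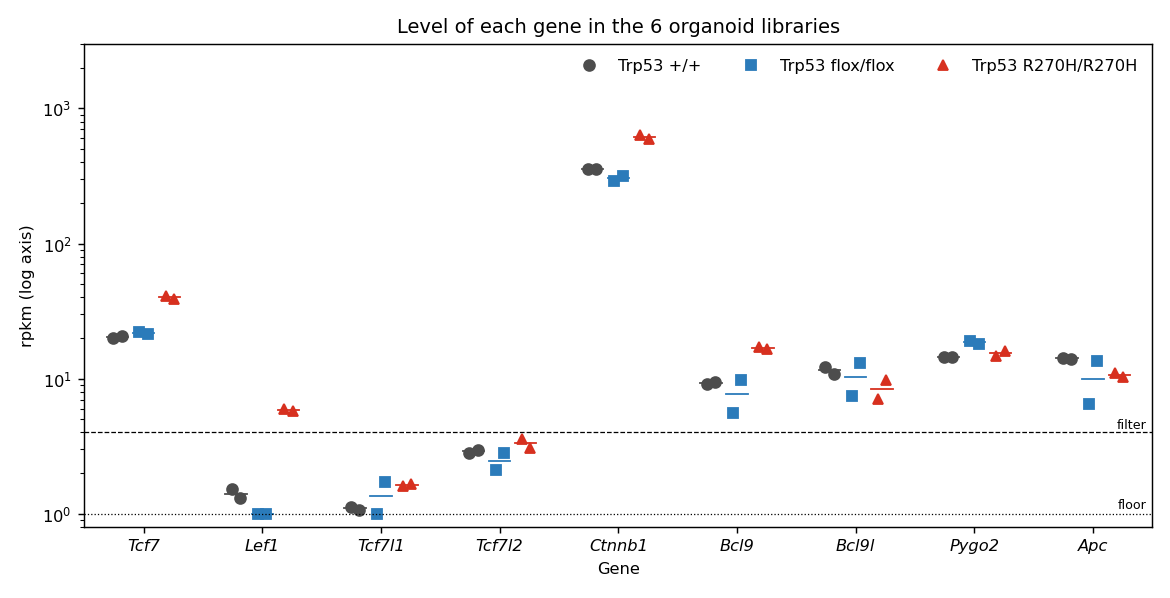
Level of the 9 genes in each of the 6 libraries, in rpkm on a log axis; symbols are libraries and short lines are genotype means. The dotted line is the floor of 1 rpkm and the dashed line the filter of 4 rpkm. The R270H/R270H libraries stand above the other 4 for Tcf7, Lef1, Ctnnb1, Bcl9 and, by a small margin, Tcf7l2.

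The balance among the paralogs was described by the share of each gene in the summed rpkm of the 4 TCF/LEF genes, for which no test was made. The sum was 25.5 and 26.1 rpkm in +/+, 26.1 and 27.1 in flox/flox, and 52.0 and 49.4 in R270H/R270H. The summed level was thus far higher in both R270H/R270H libraries than in the other 4. Tcf7 made up 79.1 ± 0.73% of the sum in +/+, 81.9 ± 3.38% in flox/flox and 78.8 ± 0.18% in R270H/R270H (SD, n = 2). Its share of this sum differed little between genotypes while its level rose against +/+. That depended on the sum, since with Tcf7l2 left out the Tcf7 share was lowest in R270H/R270H.

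The shares of Lef1 and Tcf7l2 differed more between genotypes. The share of Lef1 was 5.95% and 4.96% in +/+, 3.83% and 3.70% in flox/flox, and 11.4% and 11.5% in R270H/R270H. The flox/flox values of Lef1 rest on the floor, as does Tcf7l1 in flox/flox replicate 1, so these shares are not exact. The share of Tcf7l2 was 11.1% and 11.3% in +/+, 8.06% and 10.4% in flox/flox, and 6.87% and 6.18% in R270H/R270H, although its level in rpkm was not lower there. Tcf7l1 held 4.41% and 4.10% in +/+, 3.83% and 6.36% in flox/flox, and 3.07% and 3.35% in R270H/R270H. For Lef1 and Tcf7l2 the R270H/R270H shares lay outside the range of the other 4 libraries, higher for Lef1 and lower for Tcf7l2 as the sum rose. Those of Tcf7l1 were also below the other values. Its lowest other value, 3.83% in flox/flox replicate 1, rests on the floor and may be lower still, so this separation is not settled. Tcf7l2 exceeded Lef1 in all 4 libraries of the other genotypes, by 1.86 and 2.29-fold in +/+ and by at least 2.10 and 2.83-fold in flox/flox. In R270H/R270H the order was turned, with Lef1 above Tcf7l2 by 1.66 and 1.87-fold. Tcf7 exceeded Lef1 by 13.2 and 16.0-fold in +/+ and by 6.90 and 6.83-fold in R270H/R270H. With 2 libraries against 2, an exact permutation test cannot give a two-sided p below 0.33.

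**Figure D2:**
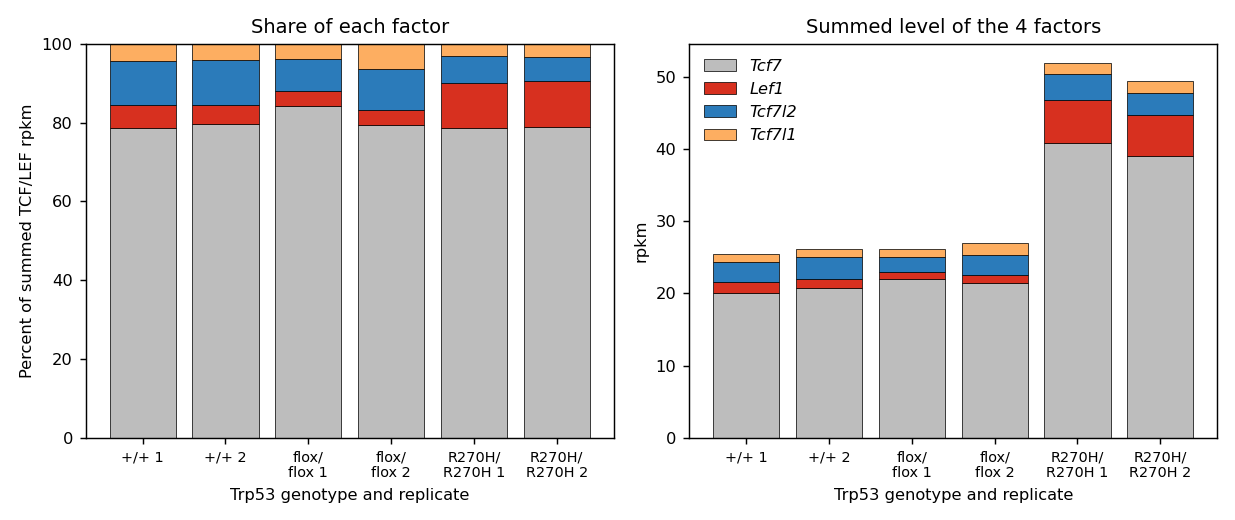
Left, percent of the summed TCF/LEF rpkm held by each of the 4 genes in each library; right, the same genes as stacked rpkm. Tcf7 is the largest part everywhere, the sum rises from 25.5 to 27.1 rpkm in the +/+ and flox/flox libraries to 49.4 and 52.0 in R270H/R270H, and the Lef1 band exceeds the Tcf7l2 band in R270H/R270H alone.

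Ctnnb1, on the plus strand of chr9:120929216-120960507, encodes beta-catenin, which works both at adherens junctions and as the coactivator of TCF/LEF proteins. It was the most abundant member in every library, with 355 and 355 rpkm in +/+, 291 and 315 in flox/flox, and 636 and 593 in R270H/R270H. The groups did not overlap, and the flox/flox libraries were the lowest. The log2 fold change of R270H/R270H against +/+ was 0.79 (SE 0.11, limma adjusted p = 0.0174).

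Among the coactivators, Bcl9 stood apart from its paralog Bcl9l. Bcl9, on the minus strand of chr3:97203662-97297917, was 9.12 and 9.51 rpkm in +/+, 5.54 and 9.71 in flox/flox, and 17.2 and 16.6 in R270H/R270H. The R270H/R270H level was 1.82-fold that of +/+ and both libraries lay above the other 4, but with the wide flox/flox pair in the common spread the adjusted p in limma was 0.0931 at a log2 fold change of 0.80. Bcl9l, on the plus strand of chr9:44482825-44511896, was 12.2 and 10.9 rpkm in +/+, 7.48 and 13.1 in flox/flox, and 7.05 and 9.70 in R270H/R270H. The flox/flox pair covered nearly the whole range, and the log2 fold change of -0.43 against +/+ had a 95% confidence interval from -1.15 to 0.28 (limma adjusted p = 0.354). The order of the pair was turned, since Bcl9l was above Bcl9 in all 4 libraries without the R270H mutation and below it in both libraries with it.

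Pygo2, the PHD finger partner of BCL9 proteins, is on the plus strand of chr3:89430214-89435128. It was 14.5 and 14.4 rpkm in +/+, 19.0 and 18.2 in flox/flox, and 14.8 and 15.9 in R270H/R270H. The flox/flox libraries were the highest, and the R270H/R270H level was within 1.06-fold of +/+, with a log2 fold change of 0.08 and a 95% confidence interval from -0.17 to 0.33 (limma adjusted p = 0.626).

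Apc was 14.3 and 14.0 rpkm in +/+, 6.48 and 13.5 in flox/flox, and 11.1 and 10.2 in R270H/R270H. The R270H/R270H libraries were below the +/+ libraries and between the flox/flox libraries, and the log2 fold change against +/+ was -0.38 with a 95% confidence interval from -1.17 to 0.42 (limma adjusted p = 0.463). Values per gene do not separate the truncated transcript from any intact one. Of the 7 members tested, 4 had both R270H/R270H libraries above the other 4, and 26.5% of all genes tested did. None had both below, and 18.7% of all genes did. The place of Lef1 among the 4 was largely fixed by the filter, and Tcf7l2, which also had both libraries above, was kept out by it, so nothing is read from this count.

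The order of the members by level was the same in both +/+ libraries, with Ctnnb1 first, Tcf7 second, then Pygo2, Apc, Bcl9l, Bcl9, Tcf7l2, Lef1 and Tcf7l1. In both R270H/R270H libraries Bcl9 had moved up to the place after Tcf7, and Lef1 had passed Tcf7l2. Neighbours in these orders did not overlap within their 2 libraries, whereas in flox/flox the ranges of Apc, Bcl9l and Bcl9 overlapped, as did those of Lef1 and Tcf7l1.

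The calls against +/+ rested on all 4 libraries of the pair of genotypes. Without either +/+ or either R270H/R270H library in turn, the limma adjusted p was between 0.0536 and 0.106 for Lef1, between 0.0832 and 0.119 for Tcf7, and between 0.136 and 0.224 for Ctnnb1, while the log2 fold changes stayed between 1.44 and 1.57, 0.90 and 0.97, and 0.74 and 0.84. In these 4 fits 0, 0, 0 and 111 of all genes were called. Leaving out flox/flox replicate 1 instead kept the 3 calls and added Bcl9 as higher (limma adjusted p = 0.000609) and Apc as lower (limma adjusted p = 0.00704), and leaving out flox/flox replicate 2 gave the same 5 calls. In each of these 2 fits 57.8% of all genes tested were called, so the added calls say little about the members.

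Against the p53-null flox/flox organoids, the R270H/R270H organoids had higher Lef1, Ctnnb1, Tcf7 and Bcl9. These 4 of the 7 members were called by limma and none was called lower, against 13.6% of all genes tested that were called higher and 11.0% that were called lower. Lef1 again was tested only because of its R270H/R270H libraries, and 3 of the other 6 were called. This comparison shares the R270H/R270H libraries with the first. Lef1 was at least 5.82-fold higher, since the flox/flox libraries were at the floor, with a log2 fold change of rpkm+1 of 1.77 (limma adjusted p = 0.00351). Ctnnb1 was 2.03-fold higher (log2 fold change 1.02, limma adjusted p = 0.00714) and Tcf7 1.84-fold (log2 fold change 0.85, limma adjusted p = 0.00691). Bcl9 was 2.22-fold higher (log2 fold change 1.10, limma adjusted p = 0.0321).

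Apc, Bcl9l and Pygo2 did not pass the test in this comparison. The log2 fold change was 0.16 for Apc (limma adjusted p = 0.718), -0.24 for Bcl9l (limma adjusted p = 0.540) and -0.26 for Pygo2 (limma adjusted p = 0.105). Without flox/flox replicate 1 the 4 calls held, and Apc was called lower at -0.32 and Bcl9l lower at -0.61, when 54.0% of all genes were called. Without flox/flox replicate 2, when 72.8% of all genes were called, Pygo2 was called lower at -0.29 (limma adjusted p = 0.0186) and Apc was instead called higher at 0.64, so the direction of Apc depended on which flox/flox library was used. The calls of Tcf7, Ctnnb1 and Bcl9 were lost without a +/+ or R270H/R270H library. Their log2 fold change then stayed between 0.97 and 1.07 for Ctnnb1 and between 1.07 and 1.12 for Bcl9. Lef1 kept its call, but it was tested only because of its R270H/R270H libraries. Both of its flox/flox values were at the floor, so nothing is read from this.

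Between the flox/flox and +/+ organoids, which share these libraries with the other comparisons, 0 of the 7 members were called by limma, and 1, Pygo2, had an unadjusted p under 0.05. Over all genes 4.38% were called higher and 6.90% lower. Pygo2 was 1.29-fold higher in flox/flox (log2 fold change 0.34, limma adjusted p = 0.0820), and its log2 fold change lay between 0.30 and 0.37 over the alternative settings. Tcf7 had a log2 fold change of 0.09 (limma adjusted p = 0.514), Ctnnb1 of -0.23 (limma adjusted p = 0.213) and Lef1 of -0.27 (limma adjusted p = 0.239). Without flox/flox replicate 2, 5 members were called, namely Apc, Bcl9, Bcl9l, Ctnnb1 and Pygo2, when 69.3% of all genes were called.

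**Figure D3:**
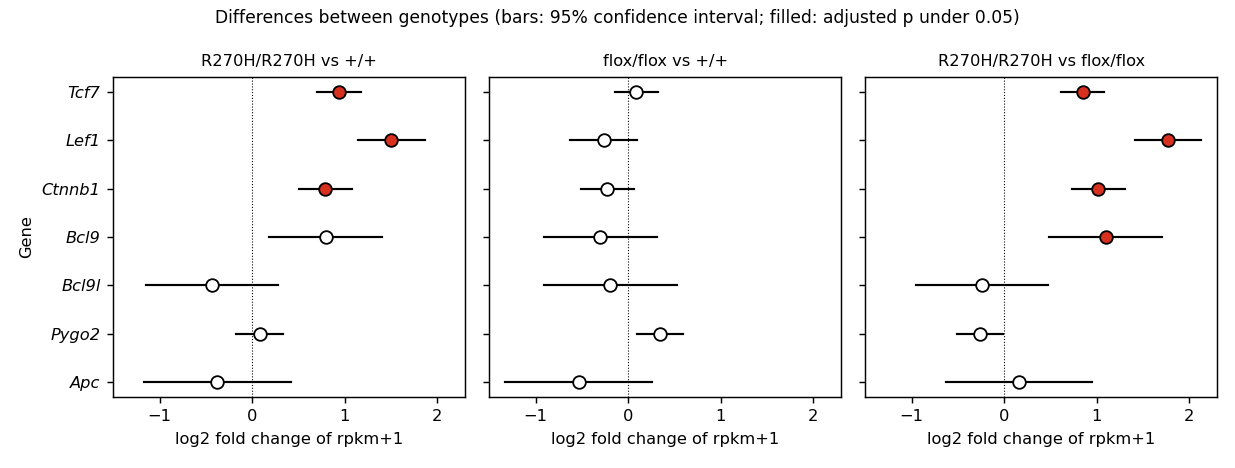
Log2 fold change of rpkm+1 for the 7 members tested in each of the 3 comparisons; bars are 95% confidence intervals from limma and filled points have an adjusted p under 0.05. Lef1, Tcf7 and Ctnnb1 are filled in both comparisons with R270H/R270H, Bcl9 only against flox/flox, and no point is filled between flox/flox and +/+.

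Because Tcf7, Lef1 and Ctnnb1 were higher together in R270H/R270H, the start of each gene was searched for short motifs. RefSeq windows of 300 bases around an annotated start on GRCm38.p6 were matched for 7 of the 9 members, with 15 windows in all. The core of the TCF/LEF motif, CTTTGAT on either strand, was in 0 of the 15 windows and in 3.73% of 32851 windows of all genes. The GC box, GGGCGG on either strand, was in 13 of the 15 windows and in 35.7% of all windows. All 7 matched members had it in at least 1 window, so it did not set Tcf7, Lef1 and Ctnnb1 apart. For each of the 3 genes 1 window is shown 5′ to 3′ on the strand of the gene, chr11:52282965-52283264 on the minus strand for Tcf7, chr3:131110047-131110346 on the plus strand for Lef1 and chr9:120933150-120933449 on the plus strand for Ctnnb1, with GC boxes in capitals.
Tcf7: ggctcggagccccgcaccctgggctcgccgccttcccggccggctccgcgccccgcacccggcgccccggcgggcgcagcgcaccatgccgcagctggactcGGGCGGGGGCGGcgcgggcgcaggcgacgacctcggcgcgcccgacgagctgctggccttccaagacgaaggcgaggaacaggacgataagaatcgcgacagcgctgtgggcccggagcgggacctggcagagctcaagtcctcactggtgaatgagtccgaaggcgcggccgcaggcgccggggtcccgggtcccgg
Lef1: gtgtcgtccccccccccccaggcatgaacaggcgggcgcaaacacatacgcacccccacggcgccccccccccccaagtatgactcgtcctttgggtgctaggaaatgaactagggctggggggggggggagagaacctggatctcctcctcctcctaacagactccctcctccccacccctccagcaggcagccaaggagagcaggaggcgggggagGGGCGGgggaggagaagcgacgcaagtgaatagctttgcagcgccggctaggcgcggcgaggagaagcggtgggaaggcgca
Ctnnb1: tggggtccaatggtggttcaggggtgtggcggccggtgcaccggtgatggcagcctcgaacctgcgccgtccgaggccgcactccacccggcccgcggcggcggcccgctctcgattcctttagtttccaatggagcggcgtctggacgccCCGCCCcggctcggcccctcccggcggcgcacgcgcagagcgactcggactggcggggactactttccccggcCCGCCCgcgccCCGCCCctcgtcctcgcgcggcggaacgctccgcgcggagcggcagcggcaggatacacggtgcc
The windows of Tcf7, Lef1 and Ctnnb1 held 2, 1 and 3 GC boxes, and 76.3%, 67.3% and 75.3% of their bases were G or C. A match describes the letters and is not a site, and sequence farther from the start was not searched.

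Neighbouring genes were examined as well. Within 1 Mb of Lef1, 6 genes were tested with a median log2 fold change of R270H/R270H against +/+ of 0.29, and 2 were called higher. Within 1 Mb of Ctnnb1, 10 genes had a median of 0.46 and 2 were called higher. Within 1 Mb of Tcf7, 16 genes had a median of 0.07, with 1 called higher. Of all genes tested, 5.86% were called higher in this comparison. The medians of chromosomes 3, 9 and 11 were 0.10, 0.09 and 0.06, against 0.03 over all genes. Tcf7, Lef1 and Ctnnb1 exceeded all of these, and whether their surroundings bear on their levels was not tested. Between flox/flox and +/+, 2 of the 10 genes near Ctnnb1 were called higher too, and 0 of those near Lef1 or Tcf7.

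Genes whose pattern over the 6 libraries was most like that of Tcf7 were Msl1 (Pearson r = 0.998), Sema3e (r = 0.996) and Mapre1 (r = 0.996). Msl1, a subunit of a histone acetyltransferase complex, was between 14.4 and 15.1 rpkm in the 4 libraries without R270H and 23.2 and 21.7 in R270H/R270H. The genes most like Lef1 were Yes1 (r = 0.999), Ldlrad3 (r = 0.998) and Slc16a12 (r = 0.998). Yes1, a Src family kinase, was between 24.4 and 25.9 rpkm in the other 4 libraries and 31.8 and 32.0 in R270H/R270H. Slc16a12 was 14.3 and 12.3 rpkm in R270H/R270H and at most 1.48 elsewhere. Among the members, Ctnnb1 followed Lef1 with r = 0.992 and Tcf7 followed Lef1 with r = 0.971. These correlations were taken on log2(rpkm+1) over 6 libraries in which the R270H/R270H pair lies apart from the others, and they are given without a test.

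The nuclear partners of TCF/LEF and beta-catenin were a list of 29 genes, of which 28 were tested. Against +/+, 3 were called higher in R270H/R270H and 0 lower, beside the 5.86% and 6.36% of all genes called in these directions, and the median log2 fold change was 0.17 against 0.03 over all genes. The 3 were Tle6 and Tle2, of the Groucho/TLE family, and Hdac1. Tle6 was 1.61 and 1.46 rpkm in +/+, 1.26 and 1.60 in flox/flox, and 12.2 and 11.1 in R270H/R270H (log2 fold change 2.32, limma adjusted p = 0.00367). Tle2 was at the floor in all 4 other libraries and 3.29 and 4.05 rpkm in R270H/R270H, at least 3.67-fold higher (limma adjusted p = 0.0150). Both Groucho/TLE genes passed the filter only through R270H/R270H, Tle2 through a single library, so the count gives no support. With 4 rpkm required in both libraries of a genotype, Tle2 was not tested and 2 of 27 were called. Hdac1, which encodes a histone deacetylase, was 1.53-fold higher (log2 fold change 0.60, limma adjusted p = 0.0241).

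Among the genes of the destruction complex other than Apc, 12 of 14 were tested and 1 was called higher against +/+, Csnk1e, which encodes a casein kinase (log2 fold change 0.53, limma adjusted p = 0.0483). This is 1 of 12 beside 5.86% of all genes, and the call was lost with either pseudocount alternative, median-of-ratios scaling, no trend or the replicate block. The median of the 12 was 0.27. Of the 4 genes of the cadherin and catenin complex at cell junctions, 0 were called by limma, 0 had an unadjusted p under 0.05, and their median was 0.02.

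Intestinal targets of beta-catenin and TCF moved in both directions. Of 23 genes 22 were tested, and 3 were called higher and 3 lower in R270H/R270H against +/+, with a median of 0.49, beside 5.86% and 6.36% of all genes. With either pseudocount alternative, no trend or the replicate block 2 were called higher. The 3 genes called higher in the fit of all 6 libraries were Dkk2, Nkd1 and Znrf3. Dkk2, a secreted regulator of Wnt receptors, was 1.94 and 2.66 rpkm in +/+, 1 and 1 in flox/flox, and 15.2 and 14.4 in R270H/R270H (log2 fold change 2.27, limma adjusted p = 0.00367), and it passed the filter only through R270H/R270H. Nkd1, an inhibitor of Dishevelled, was 2.46-fold higher (log2 fold change 1.29, limma adjusted p = 0.0243). Znrf3, a ubiquitin ligase that removes Wnt receptors, was 2.16-fold higher (log2 fold change 1.05, limma adjusted p = 0.0490).

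The lower targets included regulators of growth. Myc, a growth-promoting transcription factor, was 97.3 and 104 rpkm in +/+, 80.2 and 77.7 in flox/flox, and 41.4 and 46.5 in R270H/R270H (log2 fold change -1.18, limma adjusted p = 0.00548). Ccnd1, which encodes cyclin D1, had a log2 fold change of -0.89 (limma adjusted p = 0.0349). Mmp7, which encodes matrilysin, had a log2 fold change of -1.96 (limma adjusted p = 0.00441). Higher Tcf7, Lef1 and Ctnnb1 was thus found beside targets that were higher and targets that were lower.

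The list counts against +/+ depended on the libraries used. Without a +/+ or R270H/R270H library few genes of any list were called, and few of all genes. Without flox/flox replicate 1, when 31.6% of all genes were called higher and 26.2% lower, the nuclear partners had 11 higher and 1 lower of 28, the destruction complex 9 and 0 of 12, the junction genes 1 and 0 of 4, and the targets 13 and 5 of 22.

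Against flox/flox, where 13.6% of all genes were called higher and 11.0% lower, the nuclear partners had 5 called higher and 2 lower, the destruction complex 4 and 0, the junction genes 0 and 0 with 1 at an unadjusted p under 0.05, and the targets 9 and 3, with a median of 0.84 for the targets. These counts without flox/flox replicate 1 were 12 and 7, 7 and 0, 0 and 3, and 14 and 6, beside 29.6% and 24.4% of all genes. The log2 fold change of each of the 4 junction genes had the same direction whether flox/flox replicate 1 or replicate 2 was left out. When a +/+ or R270H/R270H library was left out instead, fewer nuclear partners, destruction complex genes and targets were called. Fewer of all genes were called as well, so nothing is read from these fits.

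Between flox/flox and +/+ the counts were 2 and 0, 0 and 1, 0 and 0 with 1 at an unadjusted p under 0.05, and 0 and 5, in the same order, beside 4.38% and 6.90% of all genes. They became, without flox/flox replicate 1, 6 and 5, 1 and 4, 2 and 0, and 2 and 12, beside 19.8% and 22.1%. When flox/flox replicate 2 was left out they were 7 and 11, 4 and 6, 1 and 1, and 5 and 14, beside 32.2% and 37.1%, and without a +/+ or R270H/R270H library none of the 4 lists had a call.

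**Figure D4:**
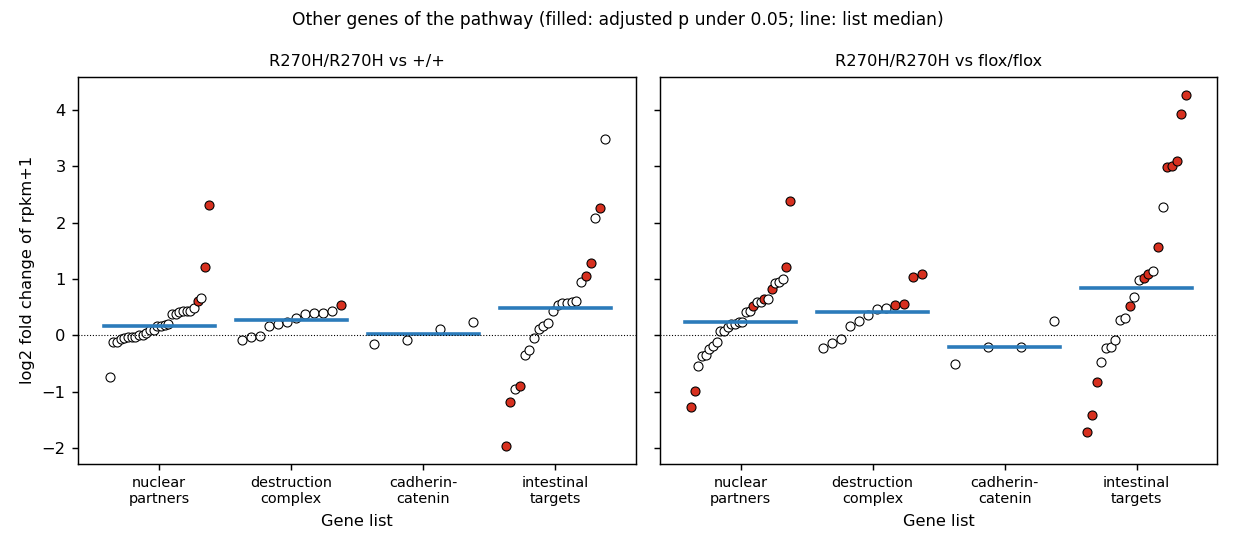
Log2 fold change of rpkm+1 of each tested gene in 4 lists of the pathway, R270H/R270H against +/+ on the left and against flox/flox on the right; each point is a gene, filled where the adjusted p in limma is under 0.05, and the line is the list median. The targets spread most widely and have filled points on both sides of 0.

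Because Tcf7 and Lef1 are also abundant in lymphocytes, markers of other cell types were read beside them. Of 12 T and B lymphocyte markers, 10 were at the floor in all 6 libraries, including Ptprc, Cd3d, Cd3e, Cd3g, Cd4 and Cd8a. The exceptions were Cd79b, at most 1.17 rpkm, and the kinase gene Lck, which was 1.55 and 1.23 rpkm in +/+, 1 and 2.17 in flox/flox, and 3.50 and 3.83 in R270H/R270H. Lck was thus highest in R270H/R270H, as were Tcf7 and Lef1, and its summed list ranged from 12.2 to 12.5 rpkm in +/+, from 12 to 13.2 in flox/flox and from 14.7 to 14.9 in R270H/R270H. Each marker at the floor adds 1 rpkm to such a sum, so 12 rpkm stands for no marker of this list above the floor.

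All 9 epithelial markers were expressed, with sums of 2923 and 2868 rpkm in +/+, 4559 and 4231 in flox/flox, and 2332 and 2509 in R270H/R270H. The epithelial sum was thus highest in flox/flox and lowest in R270H/R270H. Most of it came from the keratin genes Krt8, Krt18 and Krt19, so it does not measure the amount of epithelium. The mean of Epcam was higher in R270H/R270H than in +/+ (340 against 293 rpkm), as was that of Krt20 (4.61 against 3.54). The means of the other markers of this list were lower. Of the 6 myeloid markers Itgam, Adgre1 and Csf1r were at the floor in all libraries, and the list's sum was 28.3 to 30.9 rpkm in +/+, 18.4 to 34.7 in flox/flox and 9.03 to 9.86 in R270H/R270H. Of the 5 endothelial markers Pecam1, Kdr and Emcn were at the floor, and the sum was 15.9 to 16.3 rpkm in +/+, 5 to 27.7 in flox/flox and 5.13 to 5.20 in R270H/R270H. Of 10 fibroblast and smooth muscle markers 4 were at the floor, and the sum was 10.0 to 10.3 rpkm in +/+, 10.0 to 22.7 in flox/flox and 10.5 to 10.8 in R270H/R270H. Floor values are counted here too, so 5 rpkm for the endothelial and 10 rpkm for the fibroblast list stand for no marker above the floor. In the myeloid, endothelial and fibroblast sums the 2 flox/flox libraries differed more than those of the other genotypes. Each of these sums was highest in flox/flox replicate 2. The part of these genes and of the epithelial sum in the members' levels was not tested.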

How the data were processed

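Poly(A) RNA of 6 organoid libraries, 2 for each of 3 Trp53 genotypes, was analysed from the deposited table. The authors sequenced stranded libraries, used mm10 as the genome build and StrandNGS for the quantification, and the deposited RPKM values are normalised for gene length and library size. The version and annotation of StrandNGS are not given in the sources used here. The lowest deposited value is 1, and 23760 of 36172 genes were at it in all 6 libraries.

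The 10042 genes that reached 4 rpkm in any library were fitted as log2(rpkm+1) with lmFit and eBayes (trend) of limma 3.58.1 in R 4.3.3. All 6 libraries shared the estimate of the spread, tests were two-sided, and the Benjamini-Hochberg adjusted p was held to 0.05. The 3 genotype pairs were compared, and the code was tested on simulated data. Depth was estimated from the 1-read steps of genes under 230 nt. Sequences were taken from GENCODE M21 and RefSeq.

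The members and gene lists were chosen with earlier results of these data known. Named genes are the members, Trp53, up to 6 genes per list called in R270H/R270H against +/+, and the 3 genes most correlated with each tested TCF/LEF gene. Marker genes outside this rule are named by their values, after these were seen. Alternatives were lower and stricter filters, a pseudocount of 0.1 or none, median-of-ratios and upper-quartile scaling, no trend, weights for each genotype, fits of 2 genotypes, a replicate block, each library left out, and for the shares the floor set to 0 and Tcf7l2 left out of the sum.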

Additional observations from a re-analysis of the deposited data

How the results depend on the processing

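Filters, pseudocounts, scaling and the trend setting gave the same calls of members as reported, 3 against +/+, 0 between flox/flox and +/+ and 4 against flox/flox, and rescaling moved the median of all genes by less than 0.1 on the log2 scale. Of 356 alternative values for single genes, 305 kept direction and side of the threshold, 19 gained a call, 28 lost it and 4 reversed.

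For R270H/R270H against +/+ (1227 genes called), 1907 were called with the lower filter, 5987 with genotype weights and 5768 with 2 genotypes in the fit, and both of the last gave 6 members (Apc, Bcl9 and Bcl9l added). For flox/flox against +/+ (1133) the counts were 150 with weights and 59 with 2 genotypes, and for R270H/R270H against flox/flox (2469) they were 534 and 397, with 2 members (Lef1 and Tcf7) under the 2-genotype fit. The flox/flox pair was the most widely spread and enters the shared estimate, so fits without it gave more calls against +/+. Lef1 between flox/flox and +/+ could not be fitted with 2 genotypes, since it did not pass the filter there.

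With 1 library left out, where the lone sample is assumed to vary like the other groups, the genes called ranged from 0 to 5746, from 8 to 6891 and from 165 to 7241 in the 3 comparisons in that order, and the members called from 0 to 5, from 0 to 5 and from 1 to 6. The reversals were all of this kind and touched results that were not called in the fit of all 6 libraries. The log2 fold change between flox/flox and +/+ ranged from -0.66 to 0.055 for Bcl9 and from -0.56 to 0.18 for Bcl9l, and that of R270H/R270H against flox/flox from -0.61 to 0.13 for Bcl9l and from -0.32 to 0.64 for Apc. Without flox/flox replicate 1, the values were 0.055, 0.18 and -0.32 for Bcl9, Bcl9l and Apc in these pairs, and without replicate 2 it was 0.13 for Bcl9l.

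Libraries with the same replicate number come from different mice, and their deviations correlated at 0.12, -0.29 and -0.20, so the numbers did not pair them. With a replicate block 550, 280 and 1156 genes were called in the 3 comparisons, Ctnnb1 lost its call against +/+ (limma adjusted p = 0.0561) and Bcl9 against flox/flox (limma adjusted p = 0.0513), and the other 5 member calls held. Among the lists, the block left 2, 0, 0 and 2 genes called higher against +/+ for the nuclear partners, destruction complex, junction genes and targets. A block in which replicates 1 and 2 of R270H/R270H changed places, added after seeing the data, called 941, 873 and 2276 genes.

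With values at the floor set to 0, the share of Lef1 in flox/flox was 0% and that of Tcf7 86.9%. With Tcf7l2 left out of the sum, the share of Lef1 was 4.15% in flox/flox and 12.3% in R270H/R270H, and that of Tcf7 was 89.1%, 90.2% and 84.3% in +/+, flox/flox and R270H/R270H.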
